A study of Homo sapiens with 12 samples.

Results

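The hypoxia and glycolysis genes described here are 42 protein-coding genes: glycolytic enzymes and transporters, and known targets of the hypoxia-inducible factors. They were selected by symbol, and all 42 were found among the 58735 genes of the table. The human mesothelioma cell line MSTO-211H was grown in suspension, in a medium with EGF, FGF2 and heparin, a culture that the labels describe as mesothelioma-initiating cells. The 12 libraries form 4 groups of 3. The Combo libraries came from cells given 10 µM QTP and, on the following day, 4 Gy of radiation. The Rx libraries came from cells given 10 µM QTP and sham irradiation, the IR libraries from cells given vehicle and 4 Gy, and the Con libraries from cells given vehicle and sham irradiation. The labels name the arms but do not spell out Rx and Combo, which were read by elimination from the treatment protocol. The labels do not expand QTP either, and the study's title speaks of dopamine receptor inhibition. RNA was taken 48 h after irradiation in every group. All 4 groups share a single cell line, so cell lines other than this one, and cells in a tumour, were not sampled. Whether the 3 libraries of an arm are 3 cultures is not stated, and p-values therefore measure only the spread between libraries, which may be technical.

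Hypoxia-inducible factors are pairs of an oxygen-labile alpha subunit (HIF1A or EPAS1) and a stable beta subunit (ARNT). With oxygen, prolyl hydroxylases of the EGLN family mark the alpha subunit for binding by VHL and destruction by the proteasome; without it, the alpha subunit accumulates as protein and the pair binds short DNA elements beside its target genes. Those targets carry glucose into the cell, turn it to lactate, export acid, restrain mitochondria and signal to blood vessels. Glycolysis itself runs in every cell, so its enzymes are also made without hypoxia.

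The values are FPKM, that is, read numbers divided by gene length and by a factor for each library, and the files' reads in genes ran from 13188257 (Con 3) to 18630958 (Combo 2) per library. Mitochondrial genes took 6.73% to 10.5% of reads, and the first principal component, 26.5% of the variance, had IR 3 at one end and Combo 3 at the other. Of the markers of other cells, 4 of 4 endothelial, 6 of 7 immune and 2 of 5 fibroblast markers (DCN and PDGFRA) averaged under 0.1 FPKM, while the fibroblast markers COL3A1 (7.99), LUM (4.98) and COL1A1 (2.49) did not. The summed fibroblast list was 13.4 to 17.1 FPKM in Combo, 14.9 to 16.7 in Rx, 13.98 to 16.5 in IR and 14.6 to 16.1 in Con, and its part in the results was not tested. Of 12 mesothelial markers 5 had a mean of at least 1 FPKM: MSLN (40.1), CALB2 (20.2), THBD (1.62), KRT8 (476) and KRT18 (549). The rest of that list was lower: WT1 (0.955), KRT5 (0.690), LRRN4 (0.336), KRT7 (0.316), UPK3B (0.098), KRT19 (0.050) and PDPN (0 in all libraries). Of the 42 genes, 40 had a mean of at least 1 FPKM and entered the tests. The glycolytic aldolase ALDOC (3 to 12 reads per library) and the hydroxylase EGLN3 (1 to 27 reads) did not. In all, 33 of the 42 genes overlap another gene in the annotation, and for 6 of them (PGK1, GPI, PFKFB4, ALDOA, ALDOC and EGLN3) that gene is protein-coding and on the same strand, so reads may be shared. ALDOA, the muscle-type aldolase, stood at a mean of 4.17 FPKM, and its level is uncertain for that reason.

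The DNA element bound by the factors has the core ACGTG or GCGTG, and promoters of 4 of the genes are shown because they contrast 2 genes that followed the shared gradient described below (AK4 and GBE1) with 2 that did not (DDIT4 and PFKFB3). Each is 300 bases of RefSeq sequence (GRCh38.p14), from 250 bases before to 50 after the gene's start, written along the gene's strand, with every match to ACGTG or GCGTG on either strand in capitals. AK4 lies at chr1:65147302-65147601 (plus strand), GBE1 at chr3:81761596-81761895 (minus strand), DDIT4 at chr10:72273674-72273973 (plus strand) and PFKFB3 at chr10:6144671-6144970 (plus strand).
AK4: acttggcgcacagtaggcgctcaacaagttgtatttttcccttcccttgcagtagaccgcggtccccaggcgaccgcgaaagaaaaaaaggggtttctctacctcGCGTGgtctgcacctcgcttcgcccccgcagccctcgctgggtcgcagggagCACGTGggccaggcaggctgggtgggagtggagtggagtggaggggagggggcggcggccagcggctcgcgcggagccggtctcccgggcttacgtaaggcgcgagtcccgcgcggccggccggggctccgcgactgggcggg
GBE1: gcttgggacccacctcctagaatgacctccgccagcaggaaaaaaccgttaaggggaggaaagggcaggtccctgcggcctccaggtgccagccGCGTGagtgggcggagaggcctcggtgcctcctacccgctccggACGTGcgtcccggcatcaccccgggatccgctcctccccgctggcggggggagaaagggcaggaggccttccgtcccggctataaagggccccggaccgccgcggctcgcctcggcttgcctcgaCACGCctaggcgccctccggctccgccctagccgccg
DDIT4: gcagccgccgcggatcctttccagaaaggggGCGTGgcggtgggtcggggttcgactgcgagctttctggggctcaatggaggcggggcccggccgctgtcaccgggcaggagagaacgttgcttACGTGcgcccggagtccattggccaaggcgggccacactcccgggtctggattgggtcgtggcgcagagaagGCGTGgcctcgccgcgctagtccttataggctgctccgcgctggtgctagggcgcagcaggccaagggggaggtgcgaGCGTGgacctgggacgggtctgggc
PFKFB3: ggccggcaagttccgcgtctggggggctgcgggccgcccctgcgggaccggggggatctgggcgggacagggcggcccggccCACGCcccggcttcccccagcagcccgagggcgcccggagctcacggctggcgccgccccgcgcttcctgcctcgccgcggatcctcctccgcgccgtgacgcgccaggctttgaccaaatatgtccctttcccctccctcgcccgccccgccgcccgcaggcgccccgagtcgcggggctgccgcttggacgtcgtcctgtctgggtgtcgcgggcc

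AK4, an adenylate kinase of the mitochondrial matrix, has 3 matches, of which 2 are the strands of a single palindromic CACGTG. GBE1, the glycogen branching enzyme, has 3 separate ones. DDIT4, an inhibitor of mTORC1, has 4 matches, more than either, and PFKFB3, which makes the fructose 2,6-bisphosphate that drives phosphofructokinase, has 1. The 4 shown do not stand for the rest. SLC2A1 and CA12, which also followed, have 1 and 2 matches and no ACGTG. Genes that followed ran from 0 matches (as in HK1) to 6 (as in LDHA), and MXI1, which did not follow, has 0. A promoter window was matched for 37 of the 42 genes, and 28 of these (75.7%) held at least 1 match, against 65.0% of the windows of 8595 other protein-coding genes tested and 48.4% of all 35116 windows of the same length. For ACGTG alone the count was 20 of 37 (54.1%), against 27.2% and 21.4%. Palindromes count on both strands. For 27 of the 37 the window lies within 1000 bases of the gene start in the authors' table. A match is a run of letters and not evidence of binding.

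The genes moved together over the 12 libraries, and they did so mostly inside the groups. The gradient is the mean over the 40 tested genes of log2(FPKM + 1) after each gene's mean over the 12 libraries is taken away. It was 0.06, 0.08 and 0.22 in Combo 1 to 3, -0.02, 0.24 and -0.40 in Rx 1 to 3, 0.37, 0.08 and -0.09 in IR 1 to 3, and 0.39, -0.21 and -0.73 in Con 1 to 3. The highest and the lowest library were both Con, 1.11 apart on the log2 scale, which is 2.17-fold, and every other library lay between them. Group means were 0.12 ± 0.09 in Combo, -0.06 ± 0.32 in Rx, 0.12 ± 0.23 in IR and -0.18 ± 0.56 in Con (SD, n = 3 each). Combo was the narrowest group, with a range of 0.16, against 0.63 in Rx, 0.46 in IR and 1.11 in Con. Differences between groups held 17.3% of the gradient's sum of squares and spread inside groups held 82.7%; the between-group share was 11.5% without Con 3 and 53.0% without Con 1. Con 3 had the fewest reads of the 12 libraries and Rx 3 (14925895) the fewest of Rx, and both were the lowest of their group on the gradient. IR 1, at the high end, had 14216186, the fewest of IR. The 3 libraries with the highest mitochondrial share of reads were Rx 3 (9.78%), IR 3 (10.5%) and Con 3 (9.22%), each the lowest of its group on the gradient, and the lowest shares were in IR 1 (6.73%) and Con 1 (6.74%), at its top. The part of depth, or of whatever the mitochondrial share reflects, in the gradient was not tested.

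**Figure D1:**
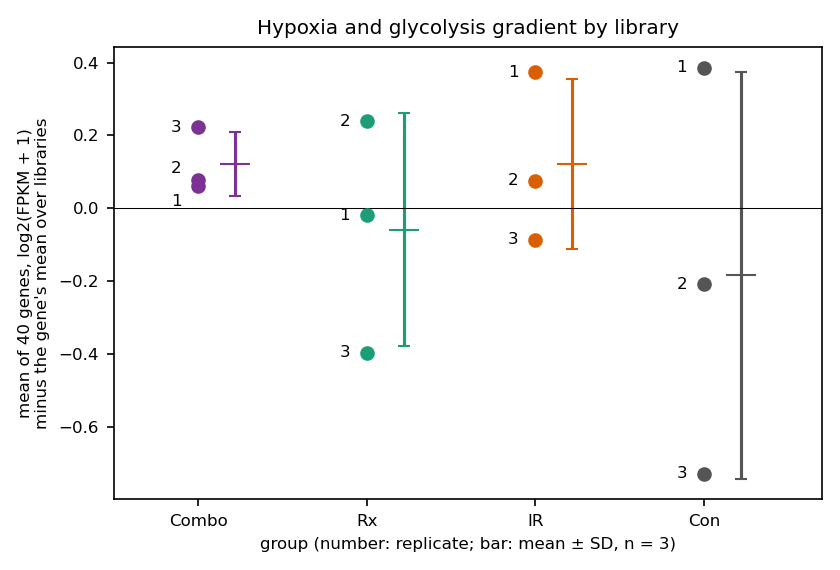
The gradient (mean log2(FPKM + 1) of the 40 tested genes minus the gene means over the 12 libraries) in each library, by group, with the group mean and SD. Con spans the whole scale, -0.73 to 0.39, and the 3 Combo libraries sit between 0.06 and 0.22.

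The spread was large for genes of this table. The median SD of log2(FPKM + 1) over the 12 libraries was 0.31 for the 40 genes, against 0.14 over all genes tested. Of the 40, 38 varied more than the median gene and 20 exceeded 0.32, the 90th percentile of all genes. A median of 18.7% of a gene's variation lay between groups, against 32.3% over all genes, and no gene of the 40 had over 50%. Differences between libraries numbered 1, 2 and 3 accounted for a median of 37.7%, against 17.6% over all genes. The 16 glycolytic enzymes and transporters and the 24 other genes gave nearly the same order of libraries, with r = 0.96 between their separate gradients over 12 libraries that both sets share; this is a description with no test.

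In Con 3, 38 of the 40 genes had their lowest value of the 12 libraries; the other two, ADM and PFKFB3, were lowest in Rx 3 and IR 3. The highest value was in IR 1 for 15 genes, in Con 1 for 12, in Rx 2 for 6 and in Combo 3 for 4. Con 1 exceeded Con 3 in 40 of 40 genes, by a median of 2.19-fold. Inside Con, 38 of 40 had Con 1 highest and Con 3 lowest, an order found in 16.7% of all genes tested. Inside Rx, 32 of 40 had Rx 2 highest and Rx 3 lowest (20.1% of all genes), and inside IR, 32 of 40 had IR 1 highest (35.1%). Combo had the least of such an order, with 22 of 40 genes highest in Combo 3 (27.9%).

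**Figure D2:**
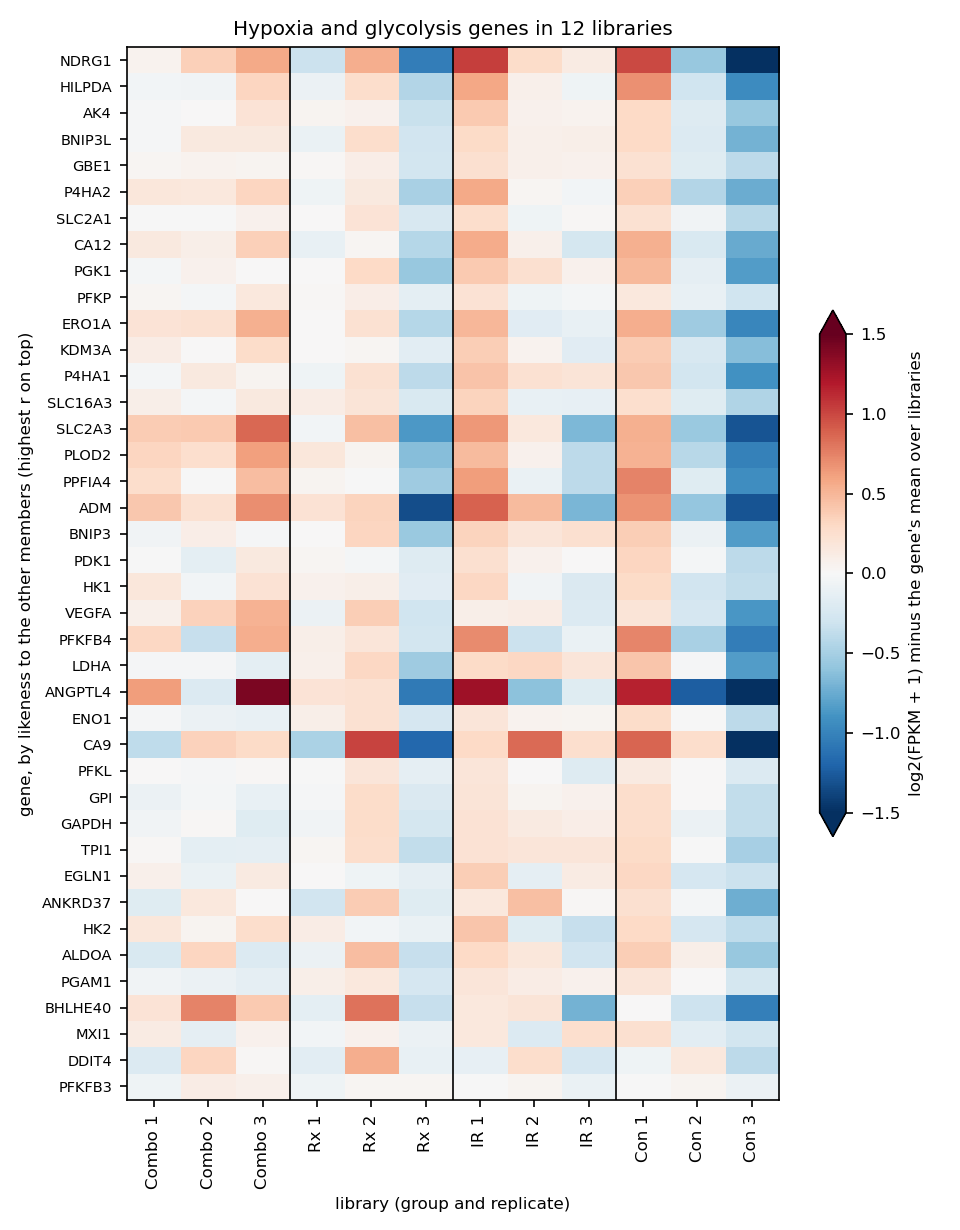
Heat map of log2(FPKM + 1) minus the gene mean for the 40 tested genes in the 12 libraries. Rows are ordered by Pearson r with the gradient of the other genes, highest on top. Columns are Combo, Rx, IR and Con from left to right. The Con 3 column is low for nearly every gene and Con 1 and IR 1 are high, while the PFKFB3 row is nearly flat.

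Glucose enters through the facilitative transporters SLC2A1 (GLUT1) and SLC2A3 (GLUT3). SLC2A3 had 9.93, 9.98 and 14.3 FPKM in Combo, 7.14, 10.4 and 3.60 in Rx, 12.1, 8.34 and 4.23 in IR, and 11.1, 4.71 and 2.41 in Con. It was highest in Combo 3 and lowest in Con 3, and the 4 groups overlapped. SLC2A1 was higher on the per-length scale, at a mean of 40.5 FPKM, and spanned 30.0 to 48.3. The SLC2A3 to SLC2A1 ratio of FPKM ran from 0.08 in Con 3 through a median of 0.22 to 0.34 in Combo 3. The hexokinases HK1 and HK2, which phosphorylate glucose, had nearly the same level (means of 32.4 and 31.7 FPKM), and the HK2 to HK1 ratio stayed between 0.88 and 1.05. GPI, which isomerises the product, and the phosphofructokinase subunits PFKP and PFKL, which commit it, had highest-to-lowest folds of 1.57, 1.43 and 1.32.

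The PFKFB enzymes set the level of fructose 2,6-bisphosphate, and the 2 members behaved differently. PFKFB4 had 8.77, 5.19 and 10.5 FPKM in Combo, 7.38, 7.96 and 5.53 in Rx, 11.9, 5.28 and 6.34 in IR, and 12.03, 4.60 and 2.85 in Con. Con 1 was its highest library and Con 3 its lowest, a 4.22-fold span. PFKFB3 had 8.04, 9.27 and 9.01 FPKM in Combo, 8.09, 8.67 and 8.63 in Rx, 8.45, 8.76 and 7.81 in IR, and 8.40, 8.72 and 7.94 in Con. Its span of 1.19-fold was the smallest of the 40, and its groups overlapped. The PFKFB4 to PFKFB3 ratio ran from 0.36 in Con 3 through a median of 0.86 to 1.43 in Con 1.

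Of the lower glycolytic enzymes, from aldolase to enolase, GAPDH, ENO1, TPI1 and PGK1 were the 4 most abundant of the 42 genes, while ALDOA was low. GAPDH, which oxidises glyceraldehyde 3-phosphate, had 993, 1040.4 and 913 FPKM in Combo, 998, 1246 and 862 in Rx, 1201, 1134 and 1101 in IR, and 1242, 970.1 and 796 in Con. Every Combo library was below every IR library, and both overlapped Con. ENO1 (enolase) had 321, 305 and 302 FPKM in Combo, 345, 380.2 and 273 in Rx, 368, 337 and 333 in IR, and 394, 324 and 248 in Con. TPI1, the triose isomerase, had 249, 222 and 223 FPKM in Combo, 251, 294 and 189 in Rx, 285, 277 and 277 in IR, and 298, 243 and 173 in Con. For both, Combo was again below IR in every library, and Con 1 and Con 3 were the extremes. Over all genes 11.6% had this order of Combo and IR, and on TPM 0 of the 40 had it, GAPDH included. PGK1, the first of the ATP-making kinases, had 161, 172 and 164 FPKM in Combo, 165, 202 and 111 in Rx, 215, 194 and 171 in IR, and 230.3, 149 and 91.2 in Con. Its 2.53-fold span was the widest of the 6 tested lower enzymes; PGAM1, the mutase, had 1.37-fold. GAPDH has 62 named pseudogenes in the annotation, whose reads came to 0.199% of its own. The mean deviation of these 6 enzymes was -0.06, 0.01 and -0.13 in Combo, so Combo 3 was not high for them.

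LDHA, which turns pyruvate to lactate, spanned 86.9 (Con 3) to 209 FPKM (Con 1). LDHB, which favours the opposite direction and is not among the 42, was higher in Con 3 (18.7 FPKM) than in Con 1 (12.2), so that the LDHA to LDHB ratio ran from 4.65 in Con 3 through a median of 10.5 to 17.2 in Con 1. SLC16A3 (MCT4), the lactate exporter, and PDK1, the kinase that shuts pyruvate dehydrogenase, had folds of 1.74 and 1.82. GBE1 and AK4 had folds of 1.57 and 2.02.

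The widest spans were in acid handling and secreted factors. CA9, a cell-surface carbonic anhydrase and a common marker of hypoxia, had 7.39, 12.9 and 12.3 FPKM in Combo, 6.88, 21.2 and 3.85 in Rx, 12.5, 18.7 and 12 in IR, and 19.0, 12.1 and 1.49 in Con. Its 14.2-fold span was the largest of the 40 and rested on 33 to 644 reads; Rx 2 was its highest library, and Con alone ran over 12.8-fold. CA12, a second surface carbonic anhydrase, had 9.56, 9.12 and 11.2 FPKM in Combo, 7.79, 8.71 and 6.06 in Rx, 13.0, 9.0 and 6.94 in IR, and 12.7, 7.13 and 4.63 in Con. Combo was above Rx in every library (8.26% of all genes), by at least the gap between 9.12 and 8.71, and the other groups overlapped it.

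ANGPTL4, a secreted inhibitor of lipoprotein lipase, had 13.3, 6.998 and 23.7 FPKM in Combo, 9.69, 9.86 and 3.43 in Rx, 21.3, 5.05 and 7.15 in IR, and 19.6, 2.91 and 2.07 in Con. It had the largest SD of the 40, 1.01 on the log2 scale, and Combo 3 was its highest library. ADM (adrenomedullin), a vasodilating peptide, had 4.94, 4.29 and 6.29 FPKM in Combo, 4.25, 4.66 and 0.788 in Rx, 7.30, 5.28 and 1.79 in IR, and 6.18, 2.00 and 0.832 in Con. Rx 3 and Con 3 were its lowest libraries, with 32 reads in Rx 3 and 30 in Con 3. VEGFA, the growth factor of blood vessels, ran from 7.10 FPKM in Con 3 to 20.4 in Combo 3. The mean deviation of the 5 genes of this role was 0.17, 0.16 and 0.66 in Combo, against 0.69, -0.41 and -1.33 in Con.

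**Figure D3:**
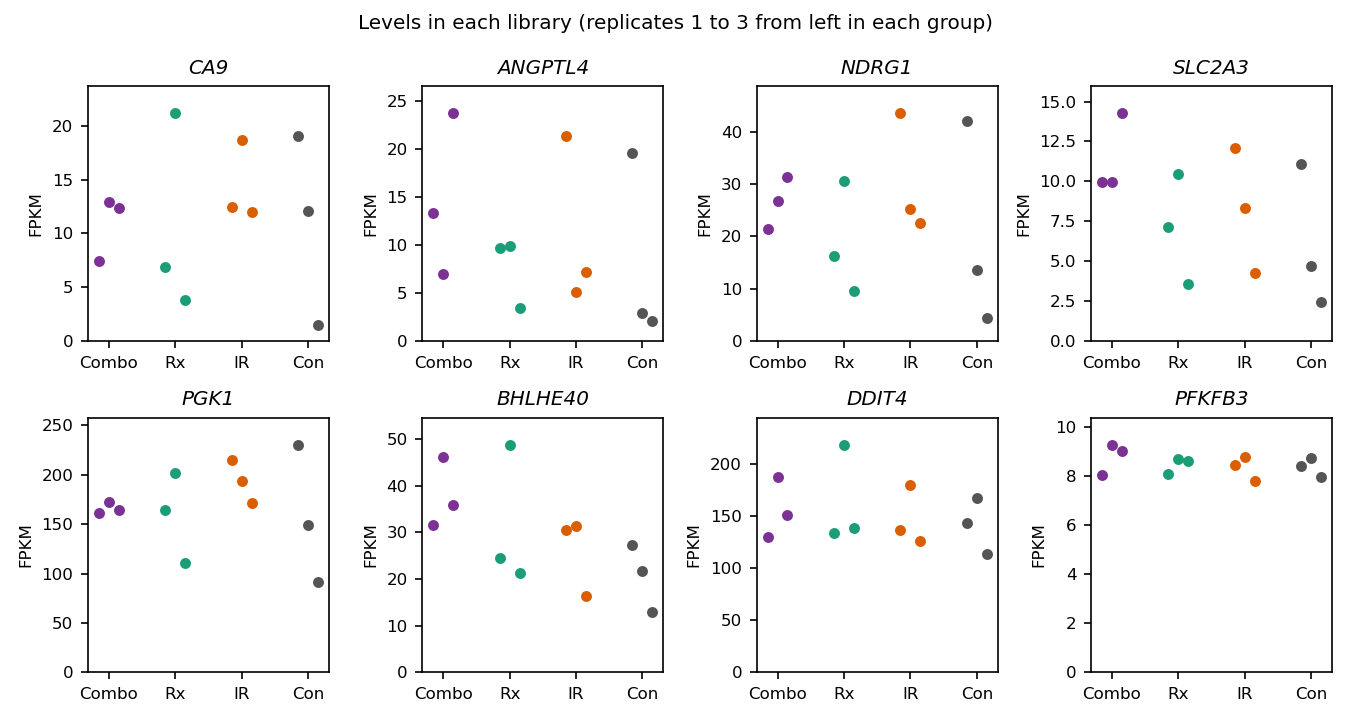
FPKM per library (points) for CA9, ANGPTL4, NDRG1, SLC2A3, PGK1, BHLHE40, DDIT4 and PFKFB3, with Combo, Rx, IR and Con from left to right. In 7 panels Con 3 is the lowest point of the 12, and in the PFKFB3 panel all libraries lie between 7.81 and 9.27 FPKM.

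Genes of collagen modification and protein folding followed the same order. PLOD2, a lysyl hydroxylase, had 15.1, 14.4 and 18.8 FPKM in Combo, 13.6, 12.3 and 7.32 in Rx, 17.0, 12.6 and 8.87 in IR, and 17.6, 8.69 and 5.42 in Con. P4HA2, a collagen prolyl hydroxylase, had 6.60, 6.54 and 7.44 FPKM in Combo, 5.47, 6.49 and 3.82 in Rx, 9.04, 5.88 and 5.57 in IR, and 7.65, 3.98 and 3.04 in Con. In both, each Combo library exceeded each Rx library, as in 8.26% of all genes. ERO1A, the oxidase that makes disulfides in the endoplasmic reticulum, had 27.5, 27.7 and 34.5 FPKM in Combo, 23.7, 27.7 and 17.2 in Rx, 33.6, 20.8 and 21.7 in IR, and 34.8, 15.96 and 11.5 in Con. Con 1 and Con 3 were its extremes. P4HA1, the more abundant prolyl hydroxylase, averaged 50.2 FPKM and spanned 2.60-fold. BNIP3 and BNIP3L, receptors for the removal of mitochondria by autophagy, spanned 2.37-fold and 2.05-fold.

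NDRG1, a stress-responsive gene long used as a sign of hypoxia, stayed closest to the gradient. It had 21.4, 26.8 and 31.3 FPKM in Combo, 16.3, 30.5 and 9.54 in Rx, 43.5, 25.1 and 22.5 in IR, and 42.1, 13.6 and 4.34 in Con. The span was 10.0-fold over all libraries and 9.69-fold inside Con. HILPDA, a lipid droplet protein that inhibits lipolysis, had 17.6, 17.4 and 23.0 FPKM in Combo, 17.0, 22.01 and 13.1 in Rx, 27.8, 19.3 and 17.4 in IR, and 29.7, 14.6 and 8.96 in Con. PPFIA4, a liprin, had 2.20, 1.64 and 2.67 FPKM in Combo, 1.74, 1.66 and 0.841 in Rx, 3.12, 1.47 and 1.03 in IR, and 3.44, 1.34 and 0.388 in Con. Both had Con 1 highest and Con 3 lowest.

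BHLHE40, a transcriptional repressor of the circadian and hypoxic responses, differed from these in its group order. It had 31.5, 46.2 and 35.9 FPKM in Combo, 24.6, 48.8 and 21.2 in Rx, 30.4, 31.3 and 16.3 in IR, and 27.3, 21.8 and 12.9 in Con. Every Combo library exceeded every Con library (10.0% of all genes) and every IR library (8.53%, and not on TPM). Con 1 was not among its highest. The hydroxylase EGLN1, which marks HIF alpha subunits, and KDM3A, a histone H3 lysine 9 demethylase, had folds of 1.69 and 2.39. ANKRD37, an ankyrin repeat gene, was low, at 0.730 to 2.92 FPKM.

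To ask which genes leave the gradient, each was set against the gradient of the other 39 over the 12 libraries, as it stood and after group means were taken away. A gene was said to follow when both Pearson r were at least 0.7. By that rule 37 of 40 followed, none went against it (both r below 0), and 3 followed in part or not. These correlations describe 12 libraries of 1 line that share depth and library, with no test. The median r was 0.88 (Spearman rho 0.83) and 0.93 inside groups; NDRG1 had the highest, 0.98. For comparison, 4.08% of 10711 other protein-coding genes tested had r of at least 0.7, and their median was -0.07.

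The 3 exceptions were PFKFB3 (r = 0.33, and 0.30 inside groups), DDIT4 (0.42 and 0.43) and MXI1 (0.64 and 0.61). DDIT4 had 129.8, 187 and 151 FPKM in Combo, 133, 218 and 138 in Rx, 137, 179 and 125 in IR, and 143, 167 and 113 in Con. Its library 2 was the highest of each group. The same held for PFKFB3, and for no other gene of the 40, against 2.82% of all genes tested; this order was picked out after the values were seen. MXI1, an antagonist of MYC, had 7.66, 6.26 and 7.34 FPKM in Combo, 6.74, 7.37 and 6.52 in Rx, 7.91, 5.93 and 8.53 in IR, and 8.40, 6.16 and 5.61 in Con. IR 3, where the gradient was below 0, was its highest library.

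Part of the likeness rested on the extreme libraries. Con 3 and Rx 3 lie farthest from the gradient's median. Without them, the median r was 0.79 and 24 of the 40 genes had r of at least 0.7. NDRG1, HILPDA and KDM3A had 0.94, 0.96 and 0.92. Abundant enzymes stood on both sides: PFKP had 0.90 and PGK1 0.83, whereas PGAM1 had 0.38, TPI1 0.40, LDHA 0.48, ENO1 0.54 and GAPDH 0.56. So did genes of lower level, of which CA9 had 0.39, ANKRD37 0.43, BHLHE40 0.46 and ALDOA 0.49.

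**Figure D4:**
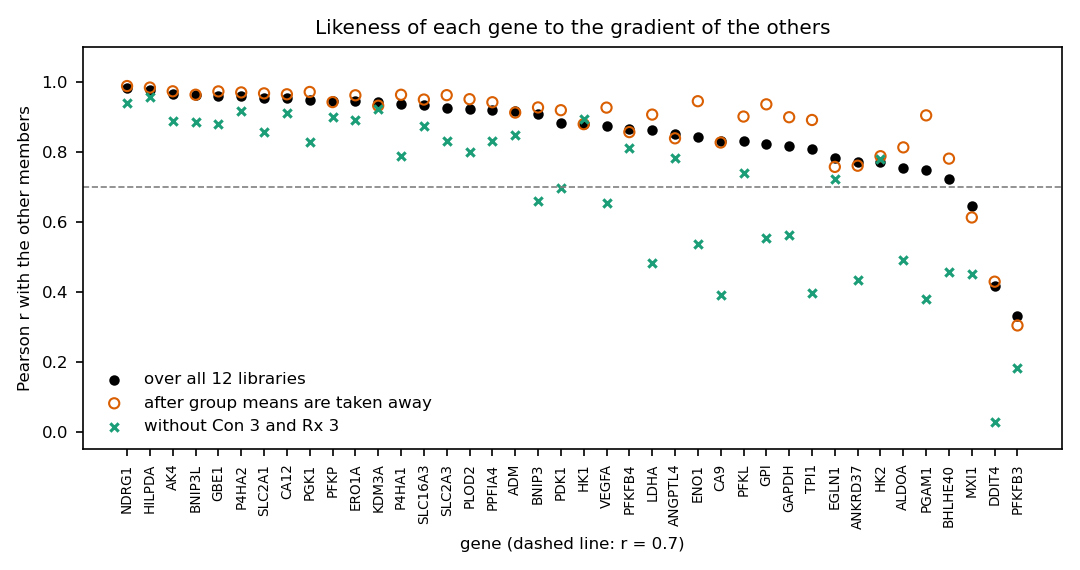
Pearson r of each of the 40 genes with the gradient of the other 39, over all 12 libraries (filled circles), after group means were taken away (open circles) and without Con 3 and Rx 3 (crosses). PFKFB3, DDIT4 and MXI1 fall below 0.7 on all of these measures, and the crosses of PGAM1, CA9 and TPI1 lie at 0.38 to 0.40.

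By limma on log2(FPKM + 1), with adjustment over all 13038 genes tested, none of the 40 was called at 0.05 in the 8 comparisons, and none was under any alternative setting run. Over all genes the share called was 0% in 7 of them and 0.0920% (12 genes) for QTP averaged over the radiation arms. With their wider spread between libraries, the 40 genes had a median SE of 0.23 in Combo against Con, against 0.11 over all genes. At an unadjusted p under 0.05, no gene of the 40 was lower in any comparison, while of all genes the share so lower was 7.69% in Combo against Con, 0.897% in Rx against Con, 3.17% in IR against Con, 6.30% in Combo against Rx, 11.6% in Combo against IR, 5.31% for the interaction, 6.17% for QTP averaged and 5.17% for radiation averaged. On the higher side the 40 genes had 2 in Combo against Con and 1 in each averaged comparison, as given below. They had 0 in IR against Con (3.69% of all genes), 0 in Rx against Con (2.36%), 0 in Combo against Rx (2.81%), 0 in Combo against IR (5.91%) and 0 for the interaction (2.32%).

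Combo against Con asks what both treatments did together. The log2 difference was above 0 in 34 of 40 genes (48.5% of all genes), with a median of 0.20, against -0.01 over all genes. Because the 40 genes moved together, counts of genes above 0 here and in the comparisons below are not 40 separate observations. By unadjusted p, 2 genes of the 40 were under 0.05 and higher, against 5.49% of all genes: BHLHE40, with a log2 difference of 0.89 (SE 0.35) and an adjusted p of 0.327, and VEGFA, with 0.62 (SE 0.25) and an adjusted p of 0.327, both by limma. ANGPTL4, SLC2A3 and NDRG1 had larger or like differences of 1.17, 0.99 and 0.86 with SEs of 0.73, 0.47 and 0.62. BHLHE40, at 37.9 ± 7.56 FPKM in Combo and 20.7 ± 7.30 in Con (SD, n = 3 each), was the only gene of the 40 whose Combo and Con libraries did not overlap upward, against 10.0% of all genes, and none were separated downward (12.8%). Without Con 3 the median was 0.01, with 21 of 40 above 0, and without Con 1 it was 0.46, with 40 of 40.

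Radiation alone and QTP alone were each set against the same Con libraries, so these comparisons are not independent of each other or of Combo against Con. In IR against Con, 39 of 40 were above 0 (36 on TPM; 52.6% of all genes), with a median of 0.27 (all genes 0.01). P4HA1 had the lowest adjusted p, 0.727 by limma, with a log2 difference of 0.55 (SE 0.26), and NDRG1 and CA9 had 1.01 (SE 0.62) and 0.80 (SE 0.70). In Rx against Con, 37 of 40 were above 0 (51.7% of all genes), with a median of 0.10 (all genes 0.00). None of the 40 had groups that did not overlap in either one; over all genes, IR was separated upward from Con in 5.56% and downward in 4.98%, and Rx from Con in 4.60% and 3.18%. Without Con 3 the medians were 0.02 in IR against Con and -0.12 in Rx against Con, where 3 of 40 were above 0, and without Con 1 they were 0.55 and 0.35. In IR against Con the median was 0.15 without IR 1, and in Rx against Con it was -0.02 without Rx 2, with 17 of 40 above 0, and 0.22 without Rx 3, with 40. On TPM, 22 of 40 were above 0 in Rx against Con, with a median of 0.02.

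Combo against IR asks what QTP added to radiation. Here 18 of 40 were above 0 (47.4% of all genes), with a median of -0.05 (all genes -0.01); on TPM, 24 were above 0, with a median of 0.05 (all genes 0.09). In 9 of 40 genes, or 22.5%, all Combo libraries were below all IR libraries, against 11.6% of all genes: GAPDH, ENO1, TPI1, PGAM1, GPI, LDHA, P4HA1, BNIP3 and GBE1. GAPDH averaged 982 ± 64.5 FPKM in Combo and 1145 ± 50.6 in IR (SD, n = 3 each), a log2 difference of -0.22 (SE 0.17) with an adjusted p of 0.502 by limma; PGAM1 had the lowest adjusted p, 0.382. The count rests on the scaling between libraries: on TPM it was 0 of 40 (7.60% of all genes), and with median-of-ratios scaling 8 (10.8%). BHLHE40 was separated upward (8.53% of all genes), but not on TPM. Without IR 1 the median was 0.06, with 26 of 40 above 0; without IR 3 it was -0.09, with 9, without IR 2 -0.09, with 15, and without Combo 3 -0.08, with 12. Without Combo 1 or Combo 2 it was -0.01 or -0.02, with 18 and 19 above 0.

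Combo against Rx asks what radiation added to QTP. Of the 40 genes, 31 were above 0 (46.0% of all genes), with a median of 0.11 (all genes -0.01). PLOD2, CA12 and P4HA2, or 7.5% of the 40, had Combo above Rx in every library, near the 8.26% of all genes. On TPM 7 genes did, 17.5% against 16.8% of all genes. PLOD2 had the lowest adjusted p, 0.606 by limma, with a log2 difference of 0.54 (SE 0.35). Without Rx 3 the median was 0.00, with 21 of 40 above 0, without Rx 2 it was 0.21, with 39, and without Combo 3 it was 0.07, with 30.

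Averaged over the QTP arms, the radiation difference was above 0 in 40 of 40 genes (48.5% of all genes), and in 38 of 40 on TPM. Its median was 0.21 (all genes 0.00), and the highest was 0.80 for NDRG1 (SE 0.44). P4HA2 had the lowest adjusted p, 0.587 by limma, and was the only gene of the 40 with an unadjusted p under 0.05 (3.34% of all genes were so and higher). By role, the median was 0.55 over the 5 acid-handling and secreted genes, 0.40 over the 4 collagen and disulfide genes and 0.05 over the 6 lower glycolytic enzymes. Without Con 3 the median was 0.08, with 32 of 40 above 0, without Rx 3 it was 0.14, with 34, and without Con 1 it was 0.34, with 40. Averaged over the radiation arms, QTP gave 22 of 40 above 0 (48.1% of all genes), a median of 0.02, and 1 gene with an unadjusted p under 0.05, BHLHE40, at 0.56 (SE 0.25) with an adjusted p of 0.429 by limma (5.21% of all genes were so and higher). Its median ran from -0.08 without Con 3, with 11 genes above 0, to 0.14 without Con 1, with 37. The interaction, Combo minus Rx less IR minus Con, was above 0 in 10 of 40 (44.9% of all genes), with a median of -0.12 (all genes -0.03). Leaving out a library moved this median in both directions: it was -0.35 without Con 1 (1 gene above 0), -0.27 without Rx 3 (3 genes), -0.22 without IR 3 (2 genes) and -0.19 without IR 2 (10 genes), but -0.02 without Rx 2 (18 genes), -0.01 without IR 1 (19 genes) and 0.07 without Con 3 (30 genes). Without Combo 3 it was -0.16, with 7 genes above 0. On TPM it was 0.07, where the median over all genes was itself 0.16.

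**Figure D5:**
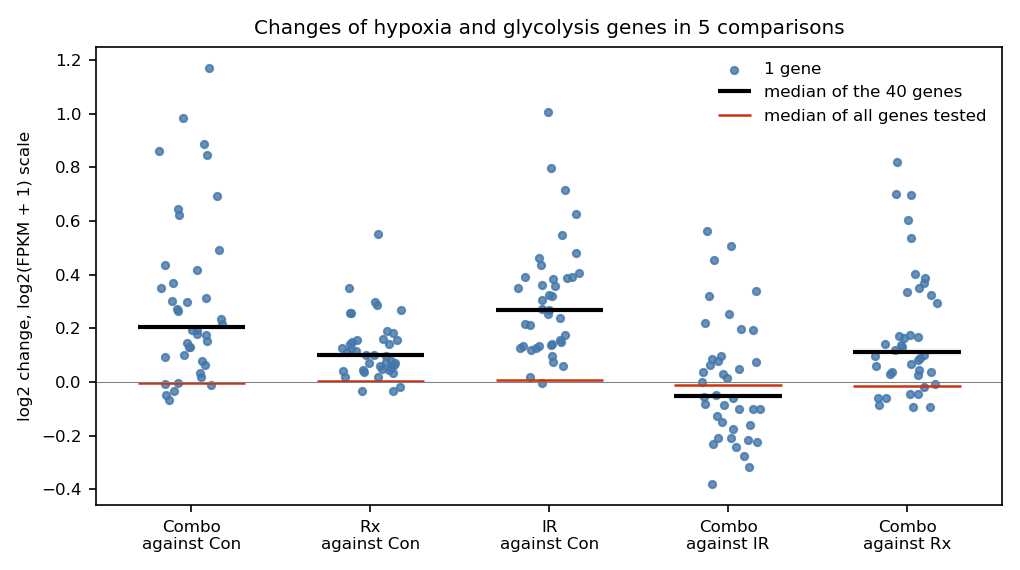
Log2 differences of the 40 genes (points) in Combo, Rx and IR against Con, Combo against IR and Combo against Rx. Lines give the median of the 40 genes and the median over all genes tested, which lies near 0. In IR against Con 39 of 40 points lie above 0 (36 on TPM), with a median of 0.27. No point passed an adjusted p of 0.05.

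The factors themselves did not track the genes at the RNA level to the same degree. HIF1A had 48.5, 41.7 and 47.6 FPKM in Combo, 44.7, 33.7 and 38.9 in Rx, 46.1, 38.2 and 36.2 in IR, and 41.4, 36.4 and 39.6 in Con. Con 1 and Con 3, at the ends of the gradient, had nearly the same HIF1A level, and its r with the gradient was 0.29. EPAS1 had 15.7, 15.6 and 16.9 FPKM in Combo, 11.4, 12.5 and 11.9 in Rx, 15.8, 10.8 and 9.75 in IR, and 13.4, 7.70 and 8.36 in Con. Combo was above Rx in every library (8.26% of all genes) and above Con in every library (10.0%). The r of EPAS1 was 0.70 over the 12 libraries, just under the threshold before rounding, and 0.75 inside groups, above it. Over the 13 tested HIF subunits and regulators the median r over the 12 libraries was 0.02, and none had r of at least 0.7 on that measure. ARNT2, a second beta subunit named here after its values were seen, ran the opposite way (r = -0.72, and -0.68 inside groups) and was highest in Con 3. None of the 13 passed an adjusted p of 0.05 by limma in any comparison.

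Most other targets of the factors that were tested, outside the 42, had r of at least 0.7, but not all. Of 36 listed, 31 were tested, with a median r of 0.79, and 18 had r of at least 0.7, among them LOXL2 (0.98) and STC1 (0.96). The rest were under 0.7, and 2 had r below 0: EPO (-0.14) and BNIP1 (-0.16), named after their values were seen. NDUFA4L2, a paralog of a respiratory chain subunit, had 2.63, 5.37 and 3.06 FPKM in Combo, 2.86, 8.37 and 1.53 in Rx, 6.97, 5.09 and 4.00 in IR, and 8.26, 4.28 and 0.752 in Con. LOX, a collagen-crosslinking oxidase, had 33.2, 30.5 and 35.6 FPKM in Combo, 27.8, 29.8 and 15.4 in Rx, 38.0, 19.5 and 22.7 in IR, and 38.9, 12.9 and 10.7 in Con. Both had Con 3 lowest, and for LOX all Combo libraries exceeded all Rx libraries (8.26% of all genes). A list of glycolysis and pyruvate genes outside the 42 mostly did not follow. Not all of it is glycolytic enzymes. It also holds pyruvate carriers (MPC1 and MPC2), pyruvate dehydrogenase subunits (PDHA1 and PDHB) and their kinases (PDK2 and PDK3), with SLC16A1 and TIGAR. Of 29 listed, 16 were tested, with a median r of 0.10, and 3 reached the threshold: ENO2, PKM and, named for that count after its values were seen, PGM1 (0.98, 0.86 and 0.85). Of the 16, 7 had r below 0: LDHB (-0.59), PFKM (-0.80, and -0.79 inside groups), BPGM, PDHA1, MPC2, SLC16A1 and PDK2. PFKM, the muscle-type phosphofructokinase, was also picked after its values were seen. Over the 10711 other protein-coding genes tested the median r was -0.07, so r below 0 was the commoner sign there. ENO2, the neuronal enolase, ran from 10.5 FPKM in Con 3 to 47.3 in Con 1, whereas PKM, the pyruvate kinase of most proliferating cells, ran from 202 to 270.4. No gene of these lists passed an adjusted p of 0.05 by limma in any comparison.

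Genes of the tricarboxylic acid cycle leaned the other way, with r below 0 in 15 of 16. Their median was -0.36, against -0.07 over other protein-coding genes tested. The 7 pentose phosphate genes had a median r of -0.10. The 9 proliferation markers had a median r of -0.03 over the 12 libraries, but with group means taken away r was above 0 in 9 of 9, at 0.22 to 0.53. MKI67, a marker of cycling cells, had 7.65, 6.72 and 5.11 FPKM in Combo, 10.7, 9.11 and 6.62 in Rx, 8.67, 7.40 and 4.78 in IR, and 12.7, 13.1 and 10.1 in Con. All its Combo and all its IR libraries were below all Con libraries. Of the 9 markers, 8 had such an order in Combo against Con (12.8% of all genes) and 4 in IR against Con (4.98% of all genes), against 0 of the 40 hypoxia and glycolysis genes in both. In bulk RNA, fewer cells with a transcript and less of it per cell cannot be told apart.

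Among all other protein-coding genes tested, those most like the gradient over the 12 libraries were ENO2 (r = 0.98), LOXL2 (0.98), STC1 (0.96), MELTF (0.95), LNPK (0.95), SPATS2 (0.95), NARF (0.95) and PPP1R3B (0.94). All 8 were lowest in Con 3. The least like were SPAG1 (-0.94), TCF7 (-0.91), GPSM2 (-0.91), PLS1 (-0.91) and FERMT1 (-0.90), and all 5 were highest in Con 3. SPAG1 spanned 1.91 to 2.95 FPKM.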

How the data were processed

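RNA of 12 libraries was measured by sequencing. Per the labels, RNA was isolated with Trizol and RNeasy columns and the NEBNext Ultra RNA kit preceded sequencing on a NovaSeq6000. The authors deposited FPKM per gene for 58735 genes; coordinates are hg38, a build named in the submitters' processing notes; an aligner, a counting tool, a strand setting and a scaling rule were not given in the sources used here. Each deposited FPKM was a whole multiple of the worth of 1 read (100% of values, tolerance 0.01 of a read), so reads were recovered, and depths are their sums. At that depth 1 FPKM over 1 kb rests on 13.3 to 19.1 reads.

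Values were tested as log2(FPKM + 1), for the 13038 genes averaging 1 FPKM or more, with limma 3.58.1 (R 4.3.3; variance trend, 4 groups sharing one spread, two-sided, Benjamini-Hochberg over all genes, threshold 0.05). This scale understates fold changes of low genes. The test was also run on simulated reads, drawn with the same spread for every gene and with none shared between genes of a library. The members, lists, named-gene rule and tests were chosen with earlier results of these data known. All members were named; per-library values were given for the 14 with the largest SD, the 4 with the highest mean, and the 3 that left the gradient. Outside them, HIF1A, EPAS1, PKM, MKI67, up to 4 genes of largest SD per list, and the 8 most and 5 least like genes were named. A few further genes were named for their level or r, or to show what a list holds.

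Pairing by replicate number was checked as the correlation of deviations from group means. It was over 0.1 for all 3 pairs between IR and Con (0.35, 0.18 and 0.16) and between Rx and Con (0.19, 0.19 and 0.28). Between Rx and IR it was 0.22, 0.098 and -0.02. Pairs with Combo ran from -0.21 (Combo 3 and IR 3) to 0.21 (Combo 2 and Con 2). The labels state no pairing, and whether the numbers mark paired samples is not known. With the number as a block, 0 genes were called in IR against Con and in Rx against Con, as without it. Combo against Con gave 90 genes with the block and 0 without it. None of the 12 pairs of libraries within a group agreed within counting noise. Alternatives covered the pseudocount, the filter, the scaling, the groups fitted, the replicate block, leaving out each library and, chosen after seeing the data, limma voom on recovered reads.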

Additional observations from a re-analysis of the deposited data

How the results depend on the processing

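Of 509 alternative values over 26 results, 475 stayed within 1.5 times of a count or within 0.34, the gradient's SD inside groups, of a median or range, and 34 moved, all of them counts of genes over the whole table or values of the gradient; the count of hypoxia and glycolysis genes past the threshold was 0 under every alternative run. Medians of the 40 genes that changed sign inside that margin stand beside their comparisons, apart from QTP averaged (-0.03 without Rx 2 and -0.03 without IR 3) and Combo against IR (0.01 by voom). With no filter, limma's counts of genes called were 5 (Combo against Con), 5 (IR against Con), 1 (Rx against Con), 4 (Combo against Rx), 6 (Combo against IR), 6 (interaction), 6 (QTP averaged) and 5 (radiation averaged). QTP averaged gave 24 genes at a mean of at least 5 FPKM, 0 on TPM, 0 with median-of-ratios scaling and 33 by voom on recovered reads. With the replicate number as a block, Combo against Con gave 90 genes and radiation averaged 3. The numbers were not shown to pair the groups. The 18 same-numbered pairs had correlations of -0.21 to 0.35, 11 of them over 0.1, and 10 of 12 libraries were closest to their own number. The block changed no other count of calls by over 1.5 times. Leaving out 1 library at a time gave 0 to 3 genes in IR against Con, 0 to 956 in Combo against IR (956 without IR 1), 0 to 3 for the interaction, 0 to 18 for QTP averaged and 0 to 1 for radiation averaged. The gradient's share between groups ran from 11.5% without Con 3 to 53.0% without Con 1. With each gene scaled to an SD of 1 its range was 3.02, in SD units. The cause of these shifts was not tested. Con 3 was the lowest library in every setting that holds it (Rx 3 without it), and Con 1 the highest, except for IR 1 with the median over genes or without Con 1.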
